A study of Homo sapiens and Mus musculus with 16 samples.

Results

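Kinesins are motor proteins that use ATP to move along microtubules or to take them apart, and their genes carry the symbol KIF followed by a number. The kinesin family was examined here across sorted P-bodies and cytoplasm of 4 cell types. Members were chosen by symbol, a number after KIF with at most 1 letter and 1 further digit, which found 39 of 22286 genes in the human count table and 34 of 15881 in the mouse table, with 34 symbols in both when mouse Kif4 and Kif19a are read as KIF4A and KIF19. They were divided by known role into 13 mitotic, 15 transport and 11 other kinesins in human, and 11, 15 and 8 in mouse. The family and this division were selected on the P-body to cytoplasm ratio itself, so every P-body to cytoplasm value below is a description, without a test.

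P-body-seq sorts particles that carry GFP-LSM14A, a P-body protein fused to a fluorescent tag, and sequences their RNA beside RNA of the cytoplasm taken before the sort. HEK293T, a human embryonic kidney line, and mESC, mouse embryonic stem cells of the KH2 line grown in serum-LIF, carried GFP-LSM14A from a lentiviral construct with an EF1a promoter, and their libraries were made from total RNA with the Snap seq protocol. Liver bud progenitors and day 20 neurons both came from UCLA4, a human embryonic stem cell line, with GFP-LSM14A at the AAVS1 locus, and their libraries were made from polyA RNA. All groups therefore carry the fusion protein, no group lacks it, and each fraction of each cell type has 2 libraries. Direct comparison between cell types was limited to neurons and liver bud progenitors. HEK293T and mESC differ from these in library kind, which cannot be told apart from cell type, and from each other in species.

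Mitotic kinesins build and move the spindle, carry chromosomes and complete cell division, and they are made mainly in dividing cells. Transport kinesins haul vesicles, organelles and RNA along microtubules, and many of them are abundant in neurons, whose axons depend on long-range transport. P-bodies are cytoplasmic condensates that hold mRNA bound by repressors of translation and by decay factors.

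Library totals ranged from 6368953 to 17972284 counts, so that 3 counts, taken as the floor of detection, stood for 0.167 to 0.471 CPM (counts scaled to a library total of 1000000). Spearman's rho between the replicates, across genes, was 0.982 to 0.992 in 7 groups and 0.919 in neuron P-bodies, so the main neuron P-body values are given below with each of these libraries left out. None of the neuron P-body to cytoplasm ratios refitted in this way, those of the kinesins named by rule, changed sign for a single gene. The 8 neuron markers summed to between 9569 and 12340 CPM in the neuron libraries and to between 196.7 and 218.6 CPM in those of liver bud progenitors. The 8 liver bud markers summed to between 182.2 and 404.3 CPM in liver bud libraries and to between 2.80 and 9.49 CPM in neurons, but ALB was at 0 in both liver bud cytoplasm libraries, and 4 human pluripotency markers summed to between 900.1 and 1054 CPM in these cells. The 5 mouse pluripotency markers summed to between 1969 and 2337 CPM in mESC, and no markers were fixed for HEK293T.

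The promoters of the members were searched for short elements known from cell cycle genes. The element TTTGAA, known from cell cycle promoters as the cell cycle genes homology region, was searched on both strands from 250 bases before to 50 bases after the start site in RefSeq promoters of GRCh38.p14, which held 33 of the 39 human members. It was found in 9 of 13 mitotic promoters, in 1 of 12 transport promoters and in none of the 8 others, against 12.2% of 16108 promoters. The windows below show the element in 8 of those 9 mitotic promoters and, last, in that of the transport kinesin KIF5B, because it was found more often among mitotic than transport members. KIF20A, KIF22, KIF2B and KIF2C had no match, and KIF4B, a near copy of KIF4A, is not shown. Capitals mark the element, written in the direction of the gene, so that TTCAAA is the same element on the opposite strand.
KIF18A, chr11:28108149-28108178, minus strand: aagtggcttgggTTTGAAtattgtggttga
KIF20B, chr10:89701602-89701631, plus strand: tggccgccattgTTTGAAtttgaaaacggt
KIF14, chr1:200620733-200620762, minus strand: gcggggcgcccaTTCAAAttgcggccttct
KIF23, chr15:69414282-69414311, plus strand: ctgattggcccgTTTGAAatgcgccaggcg
KIF11, chr10:92593090-92593119, plus strand: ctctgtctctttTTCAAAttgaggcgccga
KIF15, chr3:44761747-44761776, plus strand: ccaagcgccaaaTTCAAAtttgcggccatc
KIF4A, chrX:70290058-70290087, plus strand: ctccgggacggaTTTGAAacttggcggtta
KIF18B, chr17:44947754-44947783, minus strand: ccgcccggctaaTTTGAAcgcaaggcgccg
KIF5B, chr10:32056548-32056577, minus strand: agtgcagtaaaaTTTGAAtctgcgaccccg

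In the KIF20B window the element begins 25 bases after the start site and a second copy follows directly in lower case. The related element TTCGAA stood in the KIF22 promoter and in that of KIF24, against 1.6% of all promoters, and CCAAT, the box bound by the factor NF-Y, stood in 10 of 13 mitotic, 3 of 12 transport and 3 of 8 other promoters, against 36.5%. These matches describe letters in a window. Members with the element lay at both ends of the mitotic ratios described below, as KIF18A and KIF18B both hold it.

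Summed over the class, mitotic kinesins stood above the cytoplasm level in P-bodies of every cell type. HEK293T P-bodies held 2183 and 2238 CPM and HEK293T cytoplasm 1513 and 1447. Abundant members weigh most in such sums, as KIF20B, KIF23 and KIF18A had means of 595.3, 486.4 and 339.4 CPM in HEK293T P-bodies. Members with ratios below 0 are given further down. Liver bud P-bodies held 1689 and 1614 CPM and cytoplasm 1043 and 996.1, and mESC P-bodies held 4750 and 4704 against 2643 and 2567. In neurons the sums were 966.5 and 1099 CPM in P-bodies and 235.1 and 257.9 in cytoplasm. Libraries of the fractions kept apart in each of the 4 cell types, and as a ratio the gap was widest in neurons. With TMM scaling, an alternative chosen after seeing the data, the log2 ratio of the sums was 0.71 (HEK293T), 0.88 (liver bud), 1.90 (neurons) and 1.26 (mESC), with no overlap.

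The transport class differed by cell type. Its sums were 1595 and 1653 CPM in HEK293T P-bodies against 1253 and 1203 in cytoplasm, but 1994 in both liver bud P-body libraries against 2157 and 2177. Neuron P-bodies held 4918 and 5139 CPM and neuron cytoplasm 6290 and 6502, and mESC P-bodies held 1096 in both libraries against 1152 and 1157. As shares of the library total the sums were thus higher in P-bodies in HEK293T and lower in the other 3 cell types, but with TMM scaling, as used for all ratios of single genes below, the liver bud and mESC directions turn. The log2 ratio of the sums is then 0.53 (HEK293T), 0.07 (liver bud), -0.51 (neurons) and 0.33 (mESC), against 0.40, -0.12, -0.35 and -0.08 by library total. In bulk samples, fewer cells of a type and less RNA per cell cannot be told apart.

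**Figure D1:**
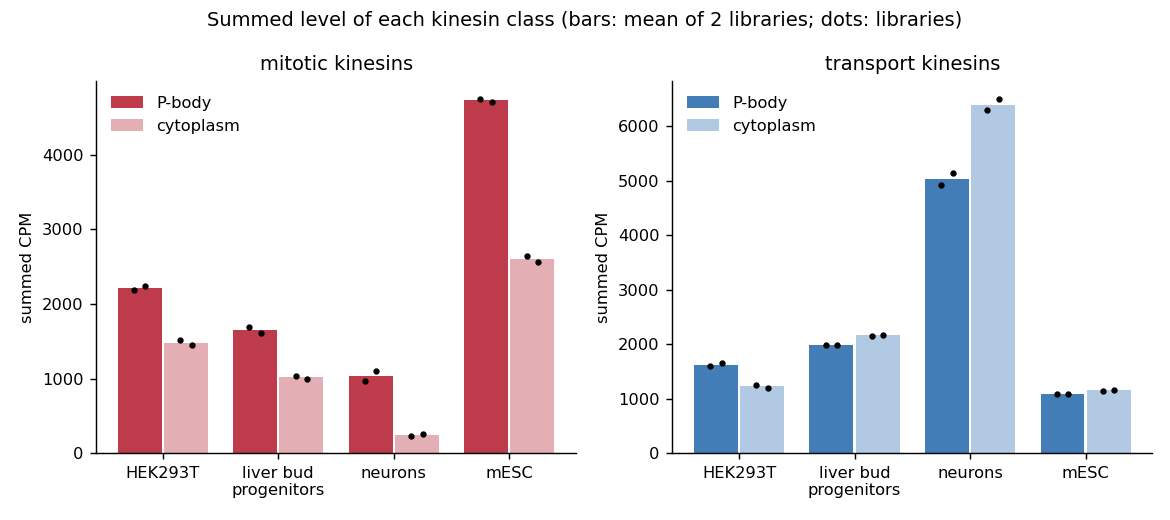
Summed CPM of the library total (linear axes from 0) of the 13 mitotic (11 in mESC) and 15 transport kinesins, by cell type and fraction. Bars are means of 2 libraries and dots are the libraries. Mitotic sums were higher in P-bodies in each cell type, from 1033 against 246.5 CPM in neurons to 4727 against 2605 in mESC, while transport sums in neurons were 5029 CPM in P-bodies and 6396 in cytoplasm. The small liver bud and mESC transport gaps turn direction with TMM scaling.

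KIF18A, which dampens chromosome movement at the metaphase plate, had the first or second place among the kinesins with a mean of at least 10 CPM in every cell type. KIF18A lies at chr11:28020619-28108156 on the minus strand (hg38). Its levels were 339 and 339.9 CPM in HEK293T P-bodies and 176.5 and 176.2 in cytoplasm, a log2 ratio of 1.07 ± 0.06 (SE, after TMM scaling, n = 2 per fraction, as for all ratios below). Liver bud P-bodies held 277.6 and 266.3 CPM against 112.7 and 99.98 in cytoplasm, a log2 ratio of 1.54 ± 0.07. The replicates of each fraction lay close together in both. In neurons the cytoplasm held 6.71 and 8.80 CPM and P-bodies 91.34 and 104, so that the log2 ratio was 3.49 ± 0.18, or 3.57 and 3.41 without either neuron P-body library. Mouse Kif18a measured 1060 CPM in both mESC P-body libraries and 345.5 and 324.8 in cytoplasm, a log2 ratio of 2.06 ± 0.04. P-body libraries were above cytoplasm libraries in all 4 cell types, and among all genes at 10 CPM or more KIF18A stood at percentile 90.2 (HEK293T), 98.9 (liver bud), 99.9 (neurons) and 99.8 (mESC).

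KIF20B is a motor of the central spindle that acts in cytokinesis. At 10 CPM or more it ranked 6 of 27 kinesins (HEK293T), 3 of 29 (liver bud), 2 of 29 (neurons) and 2 of 26 (mESC). It lies at chr10:89701590-89774939 on the plus strand. HEK293T P-bodies held 579.5 and 611.1 CPM of KIF20B and cytoplasm 342.9 and 303, and liver bud P-bodies held 513.1 and 473.2 against 269.3 and 233.9. Neuron P-bodies held 97.59 and 151.9 CPM against 11.15 and 18.85 in neuron cytoplasm, with a visible spread between the P-body replicates. Kif20b in mESC reached 1734 and 1702 CPM in P-bodies and 756.9 and 735.4 in cytoplasm. The log2 ratios, in the order HEK293T, liver bud, neurons, mESC, were 1.01 ± 0.06, 1.16 ± 0.06, 2.90 ± 0.24 and 1.61 ± 0.04. Without the first or the second neuron P-body library the neuron value was 3.17 or 2.56.

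KIF23, the motor of the centralspindlin complex at the midzone, was also above 0 in each cell type, with log2 ratios of 1.04 ± 0.06, 0.91 ± 0.07, 2.16 ± 0.15 (2.08 or 2.24 without the first or the second neuron P-body library) and 1.23 ± 0.05 in that order. Its levels in neurons were 141.5 and 129 CPM in P-bodies and 23.62 and 30.54 in cytoplasm. KIF14, another cytokinesis motor, had log2 ratios of 0.48 ± 0.07, 1.06 ± 0.07, 2.61 ± 0.20 (2.72 or 2.49 likewise) and 0.82 ± 0.05 in the same order. KIF11, the bipolar motor that separates the spindle poles, differed more between cell types. HEK293T P-bodies held 159.3 and 173.7 CPM of KIF11 and cytoplasm 199.1 and 181.9, a log2 ratio of -0.065 ± 0.065 whose sign flips with RLE scaling. The other cell types gave 0.54 ± 0.08 (liver bud), 1.45 ± 0.17 (neurons, 1.57 or 1.31 with either P-body library left out) and 0.86 ± 0.04 (mESC).

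At the lower end of the mitotic class stood KIF22, KIF18B and KIF2C. KIF22, a chromokinesin that binds chromosome arms, had levels of 17.46 and 19.53 CPM in HEK293T P-bodies against 26.87 and 30.56 in cytoplasm, and 14.46 and 14.7 against 29.05 and 29.79 in liver bud progenitors. Both give log2 ratios below 0, of -0.50 ± 0.14 and -0.83 ± 0.16, whereas the ratio was -0.18 ± 0.23 in neurons and 0.44 ± 0.08 in mESC. KIF18B, which trims astral microtubules, had ratios of -0.12 ± 0.09 (HEK293T), -0.84 ± 0.13 (liver bud), -0.05 ± 0.18 in neurons, where other scalings flip the sign, and 0.18 ± 0.07 in mESC, where scaling by library size alone turns it to -0.22. KIF2C, a depolymerase at centromeres, stood at -0.39 ± 0.11, -0.34 ± 0.14, 0.79 ± 0.22 (0.97 or 0.57 without either neuron P-body library) and 0.46 ± 0.06 in the order of cell types above. Kif4, the mouse counterpart of KIF4A, was among the lowest 3 in mESC at 0.39 ± 0.06 (-0.01 with library size alone), while KIF4A ranged from 0.71 in HEK293T to 2.25 in neurons. KIF4B is a near-identical intronless copy of KIF4A with a mean of at most 1.57 CPM in any human cell type, so reads of the pair may have been divided uncertainly.

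The class as a whole had median log2 ratios of 0.48 (HEK293T), 0.83 (liver bud) and 2.14 (neurons) over 13 members and of 0.68 (mESC) over 11. These medians include members under 1 CPM, KIF2B and KIF4B in HEK293T and KIF2B in the liver bud cells, and without them are 0.48 and 0.87. The liver bud median of 0.83 is the value of KIF4B, 0.83 ± 0.55 at a mean of 1.57 CPM. Over all genes tested the medians were -0.01, -0.09, 0.19 and -0.11. KIF2B was at 0 in both neuron cytoplasm libraries and at 2.08 and 2.32 CPM in neuron P-bodies, which makes it at least 16.1-fold higher in P-bodies against a floor of 3 counts over the cytoplasm group, and the neuron median is still 2.14 with KIF2B at that bound. Of the mitotic members, 6 were called higher and 2 lower in HEK293T (adjusted p under 0.05, edgeR), beside 19.3% and 22.8% of all genes. The counts were 7 and 4 in the liver bud cells, beside 21.4% and 17.1%, and 10 higher in neurons, beside 14.6%. All 11 were called higher in mESC, beside 25.8%. Nothing is read from these counts, since the members were selected on this contrast.

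**Figure D2:**
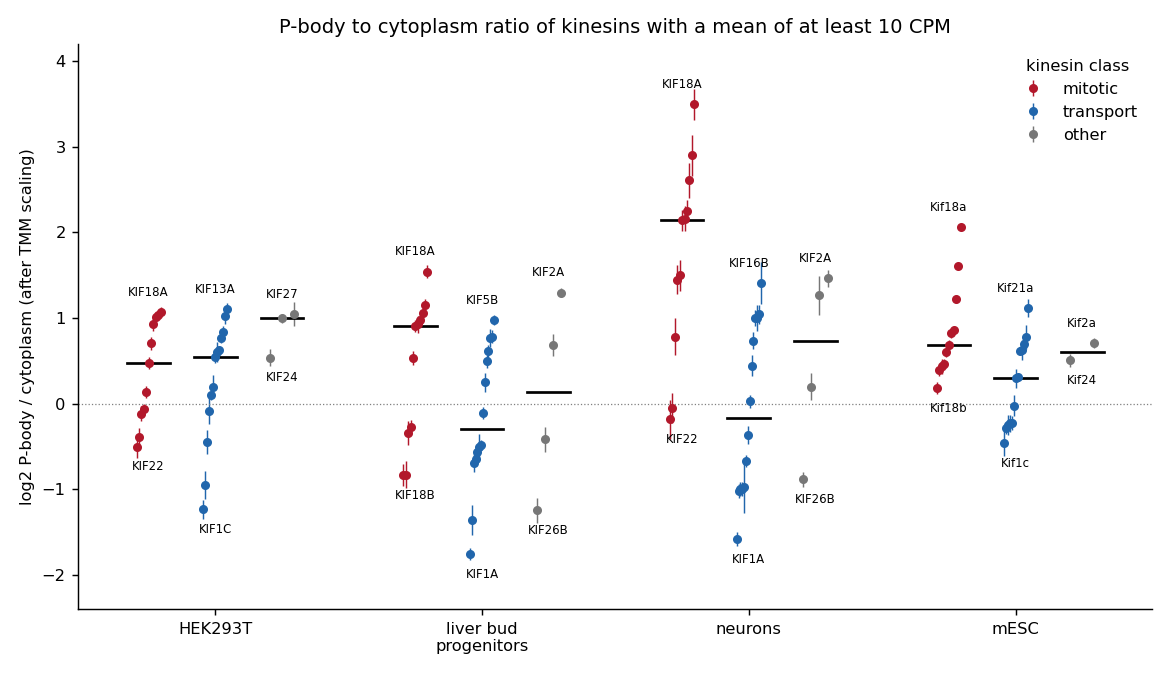
Log2 P-body to cytoplasm ratio after TMM scaling of each kinesin with a mean of at least 10 CPM, by cell type and class. Points are genes with their SE (n = 2 libraries per fraction), black lines are medians of the points shown, and the highest and lowest gene of each class is named. Mitotic points reached 3.49 in neurons, and transport points ran from -1.76 (KIF1A, liver bud progenitors) to 1.41 (KIF16B, neurons).

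Transport kinesins divided among themselves in each cell type. KIF1A, a motor of synaptic vesicle precursors at chr2:240713761-240824293 on the minus strand, had 11.44 and 9.07 CPM in HEK293T P-bodies against 21.85 and 21.26 in cytoplasm, and 90.87 and 97.07 against 338 and 384.5 in liver bud progenitors. In neurons it had 494 and 456.2 CPM in P-bodies and 1295 and 1237 in cytoplasm. Cytoplasm libraries were above P-body libraries in all of these. Log2 ratios of KIF1A were -0.95 ± 0.16, -1.76 ± 0.07 and -1.58 ± 0.08 (-1.65 or -1.51 in neurons without either P-body library), and in mESC, where its mean was 3.66 CPM, -1.24 ± 0.31. Its paralogue KIF1C, linked to vesicle movement along the cell periphery, had ratios of -1.23 ± 0.11, -0.69 ± 0.10, -0.97 ± 0.30 and -0.46 ± 0.15 in the same order. The neuron value of KIF1C rests on P-body levels of 27.78 and 12.25 CPM and becomes -1.69 or -0.48 when the first or the second of these libraries is left out.

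KIF1B, which carries mitochondria and synaptic vesicle precursors, was among the most abundant kinesins per length in neuron cytoplasm. Neuron P-bodies held 966.6 and 1004 CPM of KIF1B and neuron cytoplasm 1350 and 1451. Its log2 ratio was 0.11 ± 0.06 in HEK293T (-0.02 with library size alone), -0.48 ± 0.06 in the liver bud cells, -0.67 ± 0.07 in neurons and 0.31 ± 0.05 in mESC (-0.10 with library size alone). KIF3C, a subunit of heterotrimeric kinesin-2, had ratios of -0.44 ± 0.14, -0.64 ± 0.09, -0.996 ± 0.085 and -0.02 ± 0.12 in the same order. KIF3A, the kinesin-2 subunit needed for cilia, lay on the other side, at 0.84 ± 0.07, 0.77 ± 0.10, 0.45 ± 0.12 and 0.30 ± 0.11 (-0.10 in mESC with library size alone). KIF3B, the partner of KIF3A in that motor, had ratios of 0.55 ± 0.07, 0.50 ± 0.08, -0.37 ± 0.10 (-0.26 or -0.48 without either neuron P-body library) and 0.70 ± 0.08. The kinesin-2 motor subunits KIF3A, KIF3B and KIF3C therefore did not share a ratio in neurons, where the first was above 0 and the others were below it.

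The kinesin-1 heavy chains, which carry cargo toward the plus ends of microtubules, also differed. KIF5B, the widely expressed one, lies at chr10:32009015-32056425 on the minus strand and had 443.7 and 473.6 CPM in HEK293T P-bodies against 334.7 and 316.1, and 689.7 and 682.1 against 401 and 391.1 in liver bud progenitors. Neuron P-bodies held 299.4 and 343 CPM of KIF5B against 160.3 and 183.5 in cytoplasm. Its P-body libraries were above the cytoplasm in all 4 cell types, with log2 ratios of 0.62 ± 0.06, 0.98 ± 0.05, 0.74 ± 0.10 and 0.61 ± 0.04. KIF5C, a neuron-enriched heavy chain, had 436.3 and 476.9 CPM in neuron P-bodies and 777.4 and 843 in neuron cytoplasm. Its log2 ratios were 0.20 ± 0.13, -0.10 ± 0.07, -0.99 ± 0.08 and 0.78 ± 0.14, so that mESC and neurons lay on opposite sides of 0. KIF5A, the third heavy chain and likewise neuron-enriched, had 839.3 and 880.4 CPM in neuron P-bodies against 724 and 779.4, with a log2 ratio of 0.03 ± 0.07 after scaling, and its ratio was 0.60 ± 0.12 in HEK293T, -0.50 ± 0.14 in the liver bud cells and -0.25 ± 0.12 in mESC.

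KIF21A, a motor that also restrains microtubule growth, was above 0 throughout. Neuron P-bodies held 541.8 and 644.1 CPM and neuron cytoplasm 251.6 and 278.3, and its log2 ratios were 0.77 ± 0.06, 0.78 ± 0.08, 1.00 ± 0.09 and 1.12 ± 0.11. Its paralogue KIF21B had 392.3 and 361 CPM in neuron P-bodies against 693.4 and 666.1 in cytoplasm, and ratios of -1.36 ± 0.17 in liver bud progenitors and -1.02 ± 0.09 in neurons. The paralogues thus lay on opposite sides of 0 in both cell types. KIF16B, an endosome motor, had ratios of 1.03 ± 0.10, 0.25 ± 0.11, 1.41 ± 0.24 and 0.62 ± 0.11 in the usual order. KIF13A, which moves recycling endosomes, was the highest transport member in HEK293T at 1.101 ± 0.071 and stood at 1.04 ± 0.11 in neurons but at -0.22 ± 0.08 in mESC. KIF13B reached 1.00 ± 0.15 in neurons and was at -0.56 ± 0.09 in liver bud progenitors and -0.29 ± 0.07 in mESC.

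The median log2 ratio of the 15 transport members was 0.20 (HEK293T), -0.48 (liver bud), -0.27 (neurons) and -0.02 (mESC). In neurons it is the value of KIF17, -0.27 ± 0.51 at a mean of 4.7 CPM, and becomes 0.01 without the second P-body library. Its side of 0 in neurons thus rests on that library and on a member of low level. In mESC the median is 0.005 without the second P-body library and 0.125 without the second cytoplasm library. Called higher and lower were 7 and 4 members (HEK293T), 5 and 8 (liver bud), 6 and 7 (neurons) and 7 and 4 (mESC), beside 19.3% and 22.8%, 21.4% and 17.1%, 14.6% and 14.1%, and 25.8% and 20.6% of all genes, and as for the mitotic class nothing is read from them.

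**Figure D3:**
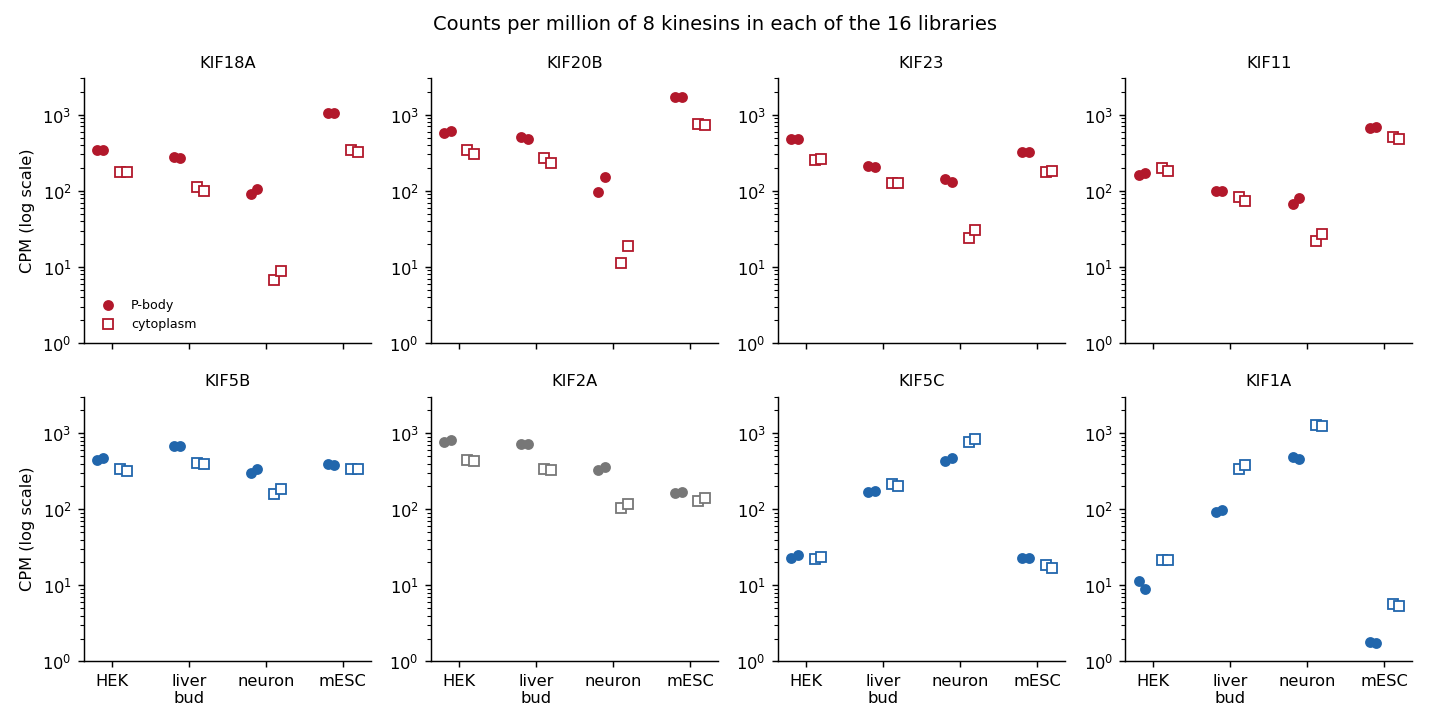
CPM on a log axis of 8 kinesins in each of the 16 libraries. Filled circles are P-body libraries, open squares cytoplasm libraries, and red, blue and grey mark mitotic, transport and other kinesins. KIF18A in neuron cytoplasm was at 6.71 and 8.80 CPM beside 91.34 and 104 in neuron P-bodies, while KIF1A was higher in cytoplasm in each cell type.

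Among the 11 other kinesins, 3 had a mean of at least 10 CPM in HEK293T. KIF2A, a microtubule depolymerase used both at spindle poles and in neurons, lies at chr5:62306162-62391025 on the plus strand. It had 769.7 and 813.5 CPM in HEK293T P-bodies against 441.4 and 425.7, 731.7 and 726.5 against 343.1 and 332.4 in liver bud progenitors, and 328.8 and 362.9 against 105.6 and 117.9 in neurons. P-body libraries were above cytoplasm libraries throughout, with log2 ratios of 1.00 ± 0.05, 1.30 ± 0.05, 1.47 ± 0.10 and, in mESC, 0.71 ± 0.06. KIF26B, a kinesin thought to lack motor activity, was below 0 in liver bud progenitors at -1.24 ± 0.15 and in neurons at -0.88 ± 0.09. KIF24 and KIF27, linked to cilia, were at 0.54 ± 0.10 and 1.05 ± 0.14 in HEK293T. KIF12, KIF19 and KIF25 had means under 2 CPM in each human cell type and KIF6 and KIF9 under 3 CPM.

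Over the whole family, 16 of 39 members were called higher in P-bodies of HEK293T and 7 lower, beside 19.3% and 22.8% of all genes. The liver bud cells gave 14 and 17 of 39 (all genes 21.4% and 17.1%), and neurons 18 and 8 (14.6% and 14.1%). In mESC 20 of 34 were called higher and 6 lower (25.8% and 20.6%), and nothing is read from these counts either. Scaling by library size alone, which lowers the mESC median of all genes by 0.402, gives 12 higher and 11 lower there, and a fit of all human libraries together gives 19 and 4 in HEK293T.

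Of the members with a mean of at least 10 CPM in all 4 cell types, 6 of 11 mitotic kinesins had a ratio above 0 in each, namely KIF14, KIF15, KIF18A, KIF20B, KIF23 and KIF4A. Kif4 alone of these flips in mESC with library size scaling. Of 12 transport kinesins, KIF16B, KIF21A, KIF3A and KIF5B were above 0 in each cell type and KIF1C and KIF3C below it, with the mESC exception for KIF3A given above. Kif3c in mESC, at -0.02 ± 0.12, had overlapping libraries and lay within its SE of 0. How many of all genes kept the same direction in each cell type was not counted. Nothing is read from these counts of members, since the members were selected on this ratio. The ratios of members correlated between cell types with a Spearman rho from 0.479 over 25 members (HEK293T and mESC) to 0.819 over 29 (liver bud progenitors and neurons). These are correlations across genes, which share libraries within a cell type and are not independent replicates.

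The members also differed in base composition, a feature not used in choosing them. Over the longest coding transcripts in GENCODE, all 39 human members had a value, with a median GC content of 45.6% for mitotic, 48.0% for transport and 51.7% for other kinesins. In mouse the medians were 46.4%, 51.6% and 51.6%. The median 3′ UTR was 588 bases for mitotic and 3226 bases for transport kinesins in human. KIF20B at 34.3% and KIF18A at 36.0% had low GC, and KIF18B at 58.4%, KIF22 at 56.9% and KIF1A at 61.0% had high GC.

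Across members with a mean of at least 10 CPM, the P-body to cytoplasm ratio was lower where transcript GC was higher. Spearman's rho was -0.756 over 27 members (HEK293T), -0.935 over 29 (liver bud), -0.732 over 29 (neurons) and -0.845 over 26 (mESC). All genes at the same level gave -0.557, -0.717, -0.686 and -0.720, so the relation was present across the transcriptome. Within liver bud progenitors rho was -0.909 over 11 mitotic and -0.952 over 14 transport members. It was weaker in the other cell types. For mitotic members it was -0.736 (HEK293T), -0.855 (neurons) and -0.900 (mESC), and for transport members -0.786, -0.618 and -0.830. The relation was thus present within each class. These correlations are across genes of the same libraries, which are not independent replicates.

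Members at or below the median GC of the kinesins in a cell type held both classes, and their ratios are given as ranges only, since class and ratio entered the choice of members. In neurons the 7 low-GC mitotic kinesins ran from 1.45 to 3.49 and the 6 low-GC transport kinesins from -0.99 to 1.41, and the members nearest each other, KIF11 and KIF16B, differed by less than their SE. The ranges overlapped in the other cell types, at -0.06 to 1.07 and 0.20 to 1.1 in HEK293T, 0.54 to 1.54 and -0.10 to 0.98 in liver bud progenitors and 0.39 to 2.06 and 0.30 to 1.12 in mESC. KIF5C, at 44.6% GC in human, was the lowest of the low-GC transport members in HEK293T, liver bud progenitors and neurons, but not in mESC.

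**Figure D4:**
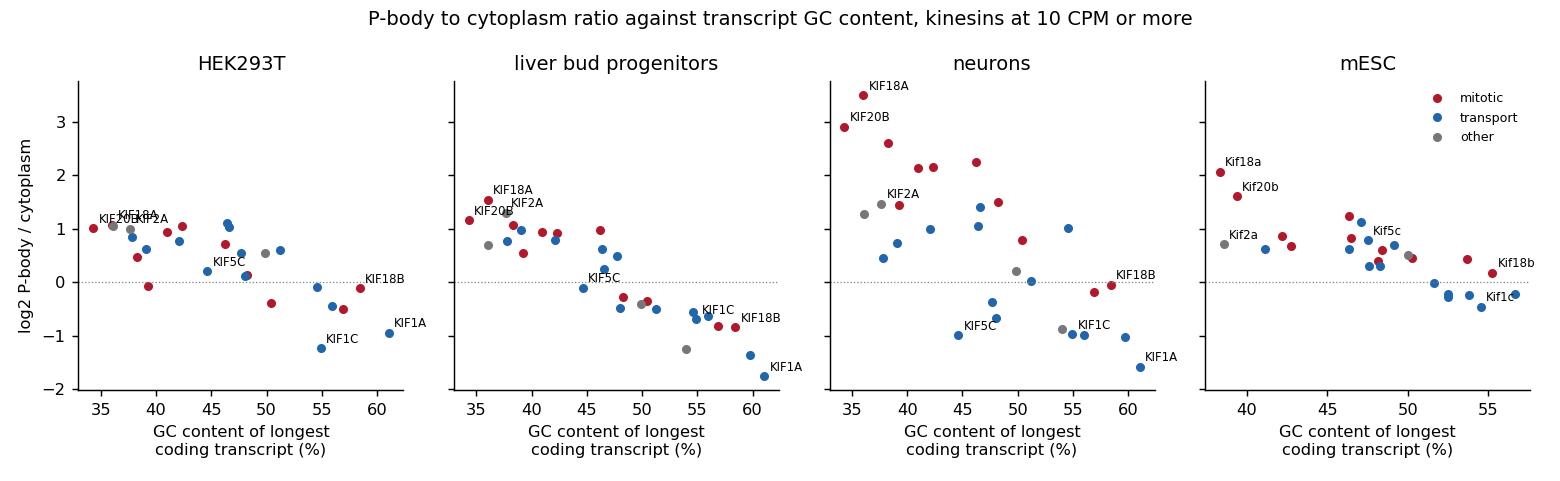
Log2 P-body to cytoplasm ratio against GC content (%) of the longest coding transcript, in 4 panels by cell type, for kinesins with a mean of at least 10 CPM. Points are genes coloured by class. The ratio was lower at higher GC in each panel, with a Spearman rho of -0.935 in liver bud progenitors and -0.732 in neurons, where KIF18A and KIF20B are the highest points.

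Neurons and liver bud progenitors were then compared within a fraction, a contrast other than the ratio used in the choice of members. It draws on the same libraries as those ratios, and members and classes were chosen with earlier results of these data known. The p-values below are therefore not independent of that choice. In cytoplasm, 11 of 39 kinesins were higher in neurons and 15 lower (edgeR, adjusted p under 0.05 over 21900 genes), beside 26% and 25.8% of all genes. In P-bodies 15 were higher and 10 lower, beside 18.4% and 22.7% of 22166 genes. The median log2 difference was 1.27 for transport kinesins in both fractions, and -1.31 in cytoplasm and 0.11 in P-bodies for mitotic kinesins. Over all genes tested the medians were -0.16 and 0.18. Without the first neuron P-body library the P-body medians become 0.71 for transport and -0.45 for mitotic kinesins. The mitotic one is also -0.03 without the second liver bud P-body library. As reported, the mitotic P-body median is the value of KIF4B, 0.11 ± 0.70 at a mean of 2.1 CPM over these P-body libraries. KIF2B, at a mean of 1.2 CPM, lies above it. The sign of this median therefore rests on single libraries and on members of low level.

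Most mitotic kinesins were lower in neuron cytoplasm, with 8 of 13 members called lower, beside 25.8% of all genes. KIF20B fell from 269.3 and 233.9 CPM in liver bud cytoplasm to 11.15 and 18.85 in neuron cytoplasm, a log2 difference of -3.69 ± 0.12 (SE, adjusted p = 8.67e-41). KIF18A differed by -3.40 ± 0.15 (adjusted p = 2.06e-33) and KIF14 by -3.04 ± 0.14 (adjusted p = 4.15e-32). KIF23 fell from 125.3 and 127.9 to 23.62 and 30.54 CPM (-1.85 ± 0.12, adjusted p = 4.85e-24), and KIF11 by 1.31 on the log2 scale (adjusted p = 1.34e-14). No library of neurons overlapped those of liver bud progenitors for these 5 genes. KIF20A, KIF4A and KIF2C were the other mitotic members called lower, and KIF2C, with a difference of -0.54 ± 0.16, loses its call without the second liver bud cytoplasm library (adjusted p = 0.164).

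These 5 genes were lower in neuron P-bodies as well. KIF20B held 97.59 and 151.9 CPM in neuron P-bodies against 513.1 and 473.2 in liver bud P-bodies (-2.12 ± 0.17, adjusted p = 5.41e-06), and -1.84 or -2.48 without either neuron library. KIF18A differed by -1.62 ± 0.10 (adjusted p = 6.88e-07), KIF14 by -1.67 ± 0.11 (adjusted p = 1.19e-06) and KIF23 by -0.77 ± 0.09 (adjusted p = 9.82e-05). KIF11 differed by -0.58 ± 0.13 (adjusted p = 0.00428), and KIF20A was the sixth member called lower (-0.47 ± 0.13, adjusted p = 0.0142). Of 13 mitotic members 6 were thus called lower and 3 higher, beside 22.7% and 18.4% of all genes. The P-body differences were nearer 0 than those in cytoplasm, but this gap is built from the ratio on which the family was selected and was not tested. KIF15, an auxiliary motor of spindle bipolarity, was singled out after its values were seen, with 180.2 and 206.1 CPM in neuron P-bodies against 75.78 and 79.74 (1.17 ± 0.11, adjusted p = 1.21e-05) while its cytoplasm difference was 0.13 ± 0.13 (adjusted p = 0.415), or -0.25 with library size alone.

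The mitotic members that were not lower in neuron P-bodies differed among themselves. KIF18B rose from 24.32 and 21.23 CPM in liver bud to 34.38 and 37.4 in neuron P-bodies (0.51 ± 0.18, adjusted p = 0.0492). That call is lost with DESeq2 and with the replicate number as a block (adjusted p = 0.0634 and 0.0722). The KIF18B difference becomes 0.65 or 0.46 without the first or second liver bud P-body library, and its call is lost in each case. KIF2B was called higher at 2.08 and 2.32 CPM in neurons beside 0 and 0.29 CPM in liver bud progenitors, where it had at most 3 counts in a library. KIF22, KIF2C, KIF4A and KIF4B did not pass the test, with log2 differences of 0.26 ± 0.23, 0.41 ± 0.21, 0.18 ± 0.10 and 0.11 ± 0.70. KIF4A passes as higher with RLE, library size alone and filterByExpr (adjusted p = 0.0477, 0.0256 and 0.00868). KIF2C passes as higher with filterByExpr and with all human libraries in 1 fit (adjusted p = 0.0382 and 0.0293). Without the first neuron P-body library the differences of KIF4A and KIF2C become 0.25 and 0.60.

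Transport kinesins were mostly higher in neurons. KIF5A had 724 and 779.4 CPM in neuron cytoplasm against 33.44 and 32.34 in liver bud cytoplasm (4.90 ± 0.09, adjusted p = 5.18e-56), and 839.3 and 880.4 against 20.44 and 20.45 CPM in P-bodies (5.25 ± 0.09, adjusted p = 4.37e-10). KIF21B differed by 4.98 ± 0.10 in cytoplasm and 5.15 ± 0.11 in P-bodies (adjusted p = 1.83e-55 and 1.5e-09). These were the transport members with the widest differences in both fractions, and no libraries overlapped. KIF3C was higher by 2.91 ± 0.08 and 2.37 ± 0.10 (adjusted p = 1.07e-44 and 6.55e-08). KIF1A was higher by 2.19 ± 0.07 in cytoplasm and 2.19 ± 0.09 in P-bodies (adjusted p = 1.36e-39 and 4.26e-08). KIF1B was higher by 2.09 ± 0.07 and 1.72 ± 0.07, KIF5C by 2.34 ± 0.08 and 1.27 ± 0.08, and KIF21A by 1.66 ± 0.09 and 1.70 ± 0.10. In all, 9 of 15 members were called higher in each fraction, beside 26% of all genes in cytoplasm and 18.4% in P-bodies. Called lower were 4 and 3, beside 25.8% and 22.7%.

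Some transport kinesins went the other way. KIF5B fell from 401 and 391.1 to 160.3 and 183.5 CPM in cytoplasm (-0.82 ± 0.08, adjusted p = 6.11e-15) and from 689.7 and 682.1 to 299.4 and 343 in P-bodies (-1.24 ± 0.08, adjusted p = 1.39e-06). The kinesin-1 heavy chains thus changed in opposite directions, KIF5A and KIF5C upward and KIF5B downward in neurons. KIF16B and KIF1C were also lower in both fractions, KIF16B by 1.57 and 0.58 on the log2 scale and KIF1C by 0.62 and 1.08. The P-body call of KIF16B is lost with library size alone, DESeq2 and filterByExpr (adjusted p = 0.0551, 0.0649 and 0.0576). Its P-body difference becomes -0.44 or -0.65 without the first or second liver bud P-body library, and the call is lost in each case. The P-body call of KIF1C is lost with filterByExpr (-0.88, adjusted p = 0.0655), and its value becomes -1.79 or -0.60 without either neuron P-body library. KIF13B was lower in cytoplasm (-0.99 ± 0.12, adjusted p = 8.65e-12) and higher in P-bodies (0.40 ± 0.13, adjusted p = 0.0312), the latter lost without the first or second liver bud P-body library (adjusted p = 0.235 and 0.0707). KIF3A was higher in both fractions, by 0.94 ± 0.12 and 0.45 ± 0.11, and its P-body call is lost without the first liver bud P-body library (adjusted p = 0.0776).

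**Figure D5:**
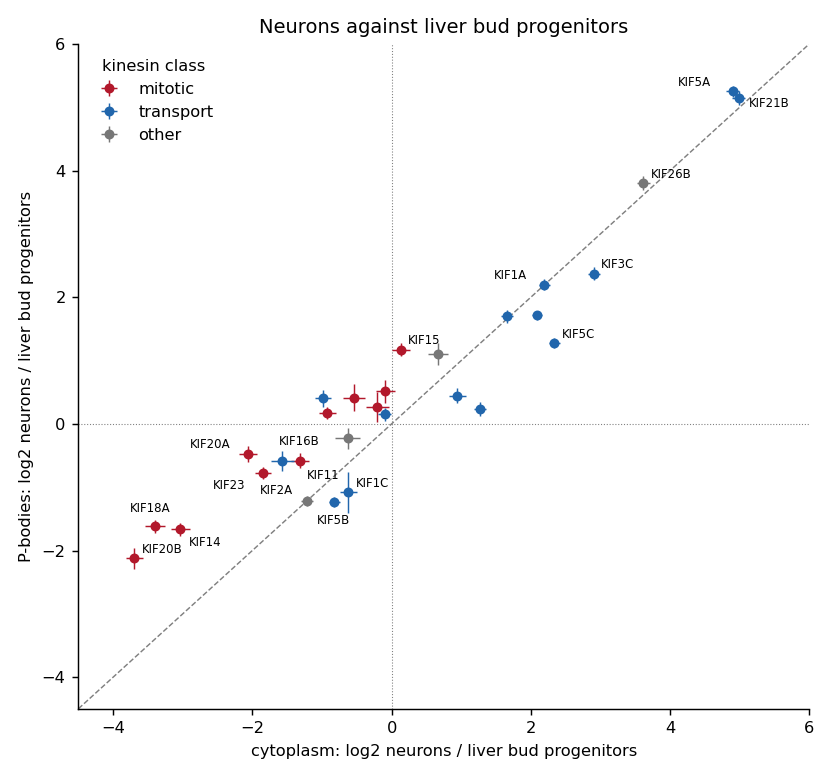
Log2 difference of neurons against liver bud progenitors in P-bodies (vertical) against that in cytoplasm (horizontal), for kinesins with a mean of at least 10 CPM in both comparisons. Bars are SE (n = 2 libraries per group) and the dashed line marks equal differences. KIF20B lies at -3.69 in cytoplasm and -2.12 in P-bodies, and KIF5A at 4.90 and 5.25.

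Of the other kinesins, KIF26B had 348.5 and 368.4 CPM in neuron cytoplasm against 36.43 and 39.59 (3.62 ± 0.10, adjusted p = 8.94e-47) and 223.4 and 212.6 CPM in neuron P-bodies against 14.36 and 13.92 (3.80 ± 0.12, adjusted p = 1.09e-08). KIF2A was lower in neurons, with log2 differences of -1.21 ± 0.08 in cytoplasm (adjusted p = 5.17e-22) and -1.22 ± 0.07 in P-bodies (adjusted p = 8.16e-07). Per kilobase of the longest coding transcript, the kinesins most abundant in neuron cytoplasm were KIF1A at 138.65, KIF5A at 129.29, KIF1B at 129.06, KIF5C at 116.51 and KIF3C at 110.33 CPM per kb. These 5 are all transport kinesins. In liver bud cytoplasm KIF5B led at 67.51 CPM per kb, in HEK293T cytoplasm KIF23 at 69.43 and in mESC cytoplasm Kif20b at 134.09.

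Proteins that work with the motors were followed as lists. Of 15 mitotic partners, which include CENPE and KIFC1, kinesins outside the symbol rule, 10 were lower in neuron cytoplasm and 5 did not pass the test, and the log2 difference ran from -2.64 ± 0.09 for the scaffold ANLN (adjusted p = 3.92e-39) to 0.19 ± 0.10 for INCENP (adjusted p = 0.107). In P-bodies 8 were lower and 2 higher, from -1.25 ± 0.08 for ANLN to 1.07 ± 0.11 for INCENP, a subunit of the chromosomal passenger complex. Of 14 transport partners, 10 were higher and 1 lower in neuron cytoplasm and 9 higher and 1 lower in P-bodies. Beside both partner lists, 26% of all genes were higher and 25.8% lower in cytoplasm, and 18.4% and 22.7% in P-bodies. The scaffold MAPK8IP2 differed by 6.57 ± 0.18 and 5.93 ± 0.38, and TRAK2, an adaptor of mitochondria to kinesin-1, by -0.48 ± 0.11 and -1.21 ± 0.13.

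In the P-body to cytoplasm ratio, given as description, the mitotic partners had medians of 0.47 (HEK293T), 0.22 (liver bud), 0.66 (neurons) and 0.26 (mESC). The highest was AURKA at 1.21 ± 0.06 in HEK293T, ECT2 at 1.41 ± 0.06 in liver bud progenitors and at 2.80 ± 0.13 in neurons, and Cep55 at 1.80 ± 0.04 in mESC. The lowest was BIRC5 at -1.24 ± 0.13, INCENP at -0.82 ± 0.09, AURKB at -0.51 ± 0.25 and Cdca8 at -0.39 ± 0.10. Transport partners had medians of -0.53, -0.43, -0.78 and -0.31, with KIFBP, which holds some kinesins inactive, highest in the 3 human cell types at 0.87 ± 0.07, 0.83 ± 0.12 and 1.12 ± 0.18.

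Markers of dividing cells did not share 1 direction between fractions in neurons. Of 8 proliferation genes 3 were called higher in P-bodies and 2 lower, beside 14.6% and 14.1% of all genes, with a median log2 ratio of 0.28. The 8 proliferation genes summed to 2844 and 3096 CPM in neuron P-bodies and to 1333 and 1436 in neuron cytoplasm. In liver bud progenitors the sums were 2945 and 2936 CPM in P-bodies and 2967 in both cytoplasm libraries. Most of the neuron sums was MKI67, with 1872 and 2035 CPM in P-bodies and 997.4 and 1090 in cytoplasm, and TOP2A, with 825.5 and 898.3 against 174.9 and 195.5. TOP2A had the highest neuron ratio among them at 2.05 ± 0.09 and MCM5 the lowest at -0.82 ± 0.15. Between the cell types 6 of the 8 were lower and MCM2 higher in neuron cytoplasm, and 5 of 8 were lower in neuron P-bodies. Of all genes, 25.8% were lower in cytoplasm and 22.7% in P-bodies. CDK1 was the lowest of the 8 in both at -2.43 ± 0.31 and -2.44 ± 0.53. The 6 neural progenitor markers summed to between 928.2 and 1031 CPM in neuron P-bodies, 553.5 and 565.1 in neuron cytoplasm and 224.3 and 259.3 in liver bud libraries. The 4 astrocyte markers summed to at most 13.15 CPM, mesenchyme markers to at most 208.6 and endothelium markers to at most 83.93 in these cells. The part of these markers in the kinesin values was not tested.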

How the data were processed

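P-body and cytoplasm RNA of 4 cell types was sequenced with paired-end reads, 2 libraries each, 16 in all. The authors deposited raw counts of reads, 1 row per gene symbol, on hg38 or mm10 refGene. Per the study's methods, nf-core with salmon was used for snapTotal-seq and hisat2 with featureCounts for Smart-seq. Which of them gave a column is not given in the sources used here. Genes under 10 reads had been removed, and the smallest gene total was 10. The deposited DESeq2 comparison tables, with log2 fold changes and adjusted p-values, were not used. All per-sample columns were used.

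Counts were tested in edgeR (4.0.16, under R 4.3.3) by its quasi-likelihood test, two-sided, with TMM scaling and no covariate, on the 4 libraries compared. CPM are per library total, and log2 ratios follow TMM. Genes with 0 counts in them were left out. A gene was called at a Benjamini-Hochberg adjusted p under 0.05 over all genes. Members, classes and lists were chosen with earlier results of these data known. The named genes are 11 fixed members, the 3 highest and 3 lowest ratios per class and cell type at a mean of 10 CPM or more and, between neurons and liver bud progenitors, the 4 smallest p per direction and fraction. KIF15 and others the text names were added after their values were seen. GC content and length came from GENCODE 44 and M21, and promoters from RefSeq (GRCh38.p14). Positions are of hg38.

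Alternatives were RLE size factors, library size only, DESeq2 1.42.0, filterByExpr, no further filter, the replicate number as a block, all human libraries in 1 fit, leaving out each library, the median GC of all coding transcripts and, added after seeing the data, TMM-scaled CPM for the summed class levels. Where a group was left with 1 library, its spread was taken from the other group. The code was tested on simulated counts. Separate cultures are not stated for the replicates, so p-values measure the spread between these samples, which may be technical. Floors cover counting error only, since reads were counted without molecular identifiers.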

Additional observations from a re-analysis of the deposited data

Results flagged for a closer look

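Among kinesins with a mean of at least 10 CPM in both cell types, 11 had opposed fractions after TMM scaling. Their P-body libraries lay above the cytoplasm libraries in one cell type and below them in another. KIF27 was opposed too, but its mean in mESC was 0.99 CPM. How many of all genes did so was not counted, so nothing about the family is read from this number. The difference of the log2 ratios was not tested for any of the kinesins, and 2 cell types made with different library kinds cannot be told apart from their chemistry.

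The widest gaps were those of KIF5C, with 1.776 between mESC at 0.78 and neurons at -0.99, and KIF20A, with 1.773 between neurons at 1.5 and liver bud progenitors at -0.27. KIF13B differed by 1.566 between neurons at 1.00 and liver bud progenitors at -0.56. KIF20A and KIF13B are from a pair of cell types with the same library kind and species. KIF13A differed by 1.324 between HEK293T at 1.101 and mESC at -0.22, which share a library kind but differ in species. KIF22 differed by 1.262 between mESC at 0.44 and liver bud progenitors at -0.83. KIF2C differed by 1.172 between neurons at 0.79 and HEK293T at -0.39, KIF5A by 1.104 between HEK293T at 0.60 and liver bud progenitors at -0.50, and KIF3B by 1.067 between mESC at 0.70 and neurons at -0.37. KIF24 differed by 0.95 between HEK293T at 0.54 and liver bud progenitors at -0.41.

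In KIF18B the gap was 1.016 between mESC at 0.18 and liver bud progenitors at -0.84, and in KIF1B it was 0.98 between mESC at 0.31 and neurons at -0.67. With library size scaling alone the mESC ratios of both fall below 0, to -0.22 and -0.10, and the directions are then no longer opposed.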

How the results depend on the processing

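The replicate numbers in the labels are only numbers. Deviations of same-numbered libraries correlated at -0.167, 0.053, 0.124 and -0.037 within HEK293T, liver bud progenitors, neurons and mESC and at -0.136 and -0.046 between neurons and liver bud progenitors in cytoplasm and P-bodies. With the replicate number as a block the kinesin counts were as before in 5 comparisons and 13 higher and 10 lower in neuron against liver bud P-bodies, where KIF18B lost its call (adjusted p = 0.0722), and the neuron transport median moved to -0.368.

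Under settings other than leaving out a library, 77 counts of called members stayed within 1.5 times the reported one and 5 did not. Called lower in HEK293T were 4 with DESeq2 and 4 with all human libraries in 1 fit, and in mESC 2 with DESeq2. Library size alone gave 12 higher and 11 lower in mESC, and the log2 ratios of Kif18b (-0.222), Kif1b (-0.095), Kif3a (-0.104) and Kif4 (-0.011) changed sign. In neuron against liver bud P-bodies filterByExpr gave 19 higher and 7 lower.

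Class medians moved by more than the spread between replicates as follows. Library size alone gave transport medians of 0.072, -0.664, -0.106 and -0.426 in HEK293T, liver bud progenitors, neurons and mESC, mitotic medians of 0.643 in liver bud progenitors and 0.28 in mESC, and, between neurons and liver bud progenitors, -1.698 (mitotic, cytoplasm), 0.886 (transport, cytoplasm) and 1.415 (transport, P-bodies). filterByExpr gave transport medians of 0.257, -0.566, -0.167 and -0.109, a mitotic median of 0.597 in mESC and 1.461 for transport in neuron against liver bud P-bodies. RLE and DESeq2 gave 0.291 and 0.29 (transport, HEK293T) and both 1.354 (transport, neuron against liver bud P-bodies), and all human libraries in 1 fit gave 0.329 in HEK293T and -0.385 in neurons for transport.

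The log2 ratio of summed class levels, by library total in the report, became 0.708, 0.882, 1.903 and 1.262 for mitotic and 0.533, 0.066, -0.512 and 0.327 for transport kinesins with TMM scaling, an alternative chosen after seeing the data.

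Leaving out each library, the mitotic medians ranged from 0.384 to 0.587 (HEK293T), 0.608 to 0.895 (liver bud), 2.079 to 2.177 (neurons), 0.623 to 0.767 (mESC), -1.455 to -1.189 (neuron against liver bud cytoplasm) and -0.449 to 0.251 (P-bodies). The transport medians ranged from 0.147 to 0.26, -0.503 to -0.441, -0.337 to 0.008, -0.157 to 0.125, 1.211 to 1.33 and 0.711 to 1.32 in that order. Called higher and lower were 16 to 17 and 6 to 7, 14 to 15 and 13 to 16, 16 to 20 and 7 to 9, 18 to 20 and 2 to 4, 11 and 14 to 15, and 10 to 19 and 8 to 12. In mESC the 6 members called lower became 3 without the first and 2 without the second P-body library and 3 without the second cytoplasm library. The 15 called higher in neuron against liver bud P-bodies became 10 without the first liver bud P-body library and 19 without the first neuron one. The cause of these changes was not tested. With 2 libraries a group, depth limits members below about 1 CPM, which still enter the class counts and medians.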
